A study of Mus musculus with 4 samples.

Results

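Mesenchyme-like cells made up 321 of the 725 cells in the first of 2 runs of the embryonic day 11 (E11) hypothalamus, and 321 of the 43261 cells of the whole series. A cell of that run was counted as a member when its unique molecular identifiers (UMIs, each marking a captured RNA molecule) of Col3a1, Col1a2, Twist1 and Prrx2 summed to at least 2 and it held at most 1 UMI of the neuronal gene Stmn2. The series profiled hypothalamus of C57BL/6J mice at E11, E14, birth (P0) and postnatal day 7 (P7), with 1 sample per age and 10x Genomics 3-prime chemistry. Every animal carried Rax-CreERT2, a tamoxifen-inducible Cre recombinase under control of the neuroepithelial gene Rax, and Ai14, a reporter that makes tdTomato after recombination. Tamoxifen was given at day 9 by the design text and 9.5 by the protocol, the samples titled E11, E14 and P7 are also labelled E11.5, E14.5 and P7.5, and live tdTomato+ cells were sorted. The driver marks cells by Rax activity at the time of tamoxifen, and neither the number of embryos pooled nor what set the 2 runs apart is given in the sources used here.

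The 4 rule genes and Stmn2 chose the members, so every comparison of members with other cells of the run is a description. No age was replicated, so no test was made. Levels are given as counts scaled to a total of 1000000 (CPM) of a group's summed counts with exact Poisson 95% intervals, and shares of cells with exact Clopper-Pearson 95% intervals. Both kinds of interval cover counting error only. Members held 3736139 UMIs in all, with 5109 UMIs in the shallowest cell, a median of 10816 and 38277 in the deepest. The 404 other cells of the run had a median of 8131 UMIs. They fell into 191 cells with at least 2 Stmn2 UMIs (neuron-gene cells), 109 with at least 2 summed UMIs of Sox2, Hes5 and Fabp7 (progenitor-gene cells) and 104 remaining cells. The 2 E11 runs stood apart. Cells passing the same rule were 44.3% of run 1 (40.6 to 48.0) and 1.34% of run 2 (1.02 to 1.73), so what follows rests on run 1, and values of run 2 are given beside it.

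Mesenchyme is the loose embryonic tissue that surrounds the brain and fills the face. In the head, much of it comes from the neural crest, and the rest, including the precursors of the eye and jaw muscles, comes from mesoderm. Its cells secrete fibrillar collagens into the space around them and use transcription factors of the Twist, Prrx, Msx, Alx and Dlx families, several of which mark where along the face a cell lies.

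Of the 5 naming markers, 4 are the rule genes, so their values describe the choice of members and do not check the label, and Foxc1 is the marker that the rule did not use. Col3a1, the chain of type III collagen, had 171 CPM in members (158 to 185) and 11.3 in the other cells of the run. Single members held between 0 and 11 Col3a1 UMIs with a median of 2, and 264 of 321 had at least 1. Col1a2, a chain of type I collagen, had 140 CPM (128 to 152) against 16.3 and was found in 239 members. Prrx2, a homeobox factor of facial and limb mesenchyme, had 161 CPM (148 to 174) against 11.8 and was found in 219 members. Twist1, a basic helix-loop-helix factor of head mesenchyme, had 72.3 CPM (63.9 to 81.4) against 6.61 and was found in 148. Foxc1, a forkhead factor of periocular and meningeal mesenchyme, had 16.3 CPM (12.5 to 21.0) against 4.72, and 42 of 321 members (13.1%, 9.60 to 17.3) held a UMI of it, next to 13.6% of the cells passing the rule in run 2 (6.04 to 24.98) and 3.96% of the other run 1 cells (2.28 to 6.35). Of the 5 markers, 25 members had a UMI of 1, 94 of 2, 113 of 3, 85 of 4 and 4 of all 5. In the RefSeq annotation of GRCm38.p6, Col3a1 lies on chromosome 1 from 45311538 to 45349706, Col1a2 on chromosome 6 from 4505618 to 4541543, Twist1 on chromosome 12 from 33957671 to 33959831 and Prrx2 on chromosome 2 from 30845064 to 30881251.

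The promoters of the 2 collagen genes in the rule are shown because these genes were found in more members than the other 2 rule genes. Each sequence runs from 250 bases before to 50 bases after the annotated start on the plus strand (RefSeq, GRCm38.p6), with CCAAT on either strand in capitals.
Col3a1, chr1:45311288-45311587: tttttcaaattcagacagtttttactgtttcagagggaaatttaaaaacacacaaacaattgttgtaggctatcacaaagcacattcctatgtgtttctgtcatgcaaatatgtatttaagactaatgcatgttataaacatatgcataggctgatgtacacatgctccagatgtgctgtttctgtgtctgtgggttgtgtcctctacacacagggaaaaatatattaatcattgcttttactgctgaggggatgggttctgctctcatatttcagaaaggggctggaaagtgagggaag
Col1a2, chr6:4505368-4505667: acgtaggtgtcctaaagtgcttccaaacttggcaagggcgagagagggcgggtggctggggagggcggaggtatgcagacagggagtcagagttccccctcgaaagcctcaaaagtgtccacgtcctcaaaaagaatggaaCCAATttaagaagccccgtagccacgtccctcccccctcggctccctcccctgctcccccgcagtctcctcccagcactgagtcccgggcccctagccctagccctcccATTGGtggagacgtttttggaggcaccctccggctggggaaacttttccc
The Col1a2 window held 2 matches to CCAAT (printed as ATTGG where it lies on the minus strand) and the Col3a1 window 0. CCAAT was present on either strand in 37.4% of 32851 mouse promoters of this length. The E-box pattern CANNTG, the class of site that Twist proteins bind, had 4 matches in the Col3a1 window and 0 in that of Col1a2, and was present in 72.3% of the promoters.

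Genes outside the rule were followed across the threshold. Among run 1 cells with at most 1 Stmn2 UMI, the 45 cells just inside, with a sum of 2, had 181 CPM of Prrx1, a close relative of Prrx2, and 98.9 of Twist2, a close relative of Twist1. The 54 cells just outside, with a sum of 1, had 78.4 CPM of Prrx1 and 57.8 of Twist2, and the 159 cells with a sum of 0 had 14.998 and 5.36. Crabp1, which binds retinoic acid in the cytoplasm, was at 488 CPM just inside and 223 just outside. Sox2, a factor of neural progenitors, was at 23.2 CPM just inside and 92.9 just outside, and the neuronal tubulin Tubb3 at 58.9 and 221. The cells just outside thus lay between the members and the cells without any rule UMI in each of these 5 genes. Foxc1 did not follow this order, at 16.8 CPM just inside, 20.6 just outside and 2.68 at a sum of 0, nor did the epithelial gene Epcam, at 21.1, 10.3 and 40.7. Both rest on few counts, with 61 UMIs of Foxc1 and 24 of Epcam over all members, so their order near the threshold is uncertain. A further 14 cells that met the sum were left out by Stmn2 alone.

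**Figure D1:**
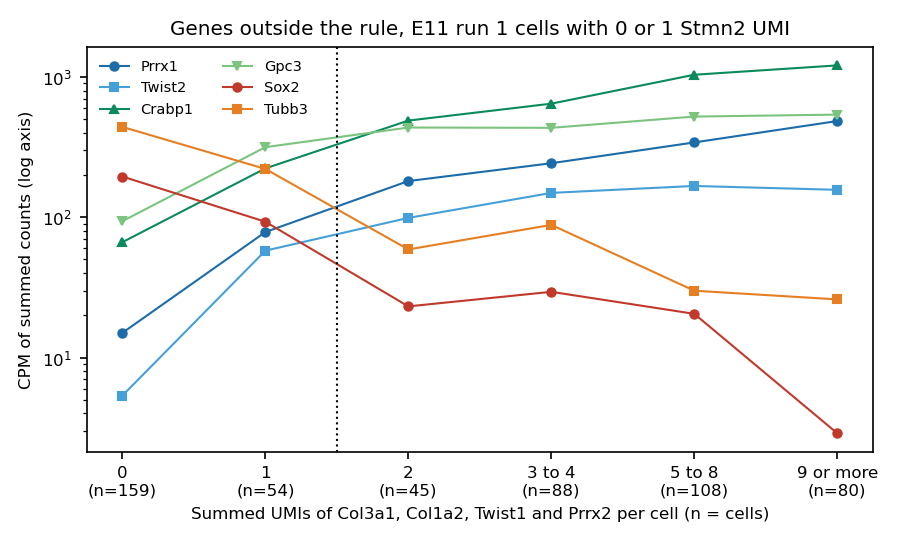
CPM of 6 genes that the rule did not use (log axis) in E11 run 1 cells with 0 or 1 Stmn2 UMI, grouped by their summed UMIs of Col3a1, Col1a2, Twist1 and Prrx2; the dotted line marks the threshold and n gives the cells of each bin. Prrx1 goes from 14.998 CPM at a sum of 0 to 485 in the 80 cells with 9 or more, Crabp1 from 66.4 to 1208, and Tubb3 from 440 to 26.0.

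Over all genes with at least 10 UMIs, 253 of 13211 (1.92%) were at least 2-fold higher in members than in the other cells of the run and 829 (6.28%) at least 2-fold lower. These ratios have 5 CPM added to each side, and their median was 0.938. The 20 highest genes found in at least 25% of members were, after the rule genes, mostly developmental regulators. Prrx1 had 336 CPM (317 to 355) against 36.3, and was found in 236 members with a median of 3 UMIs and a highest count of 23. Twist2 had 151 CPM (139 to 164) against 17.2. Irx3, an Iroquois homeobox factor, had 91.0 CPM (81.6 to 101) against 8.02. Barx1, a homeobox factor of the molar-forming jaw mesenchyme, had 74.1 CPM (65.7 to 83.4) against 7.55. Msx1, a homeobox factor downstream of bone morphogenetic protein (BMP) signals in facial mesenchyme, had 165 CPM (152 to 178) against 23.8. The growth factor gene Igf1 had 124 CPM (113 to 135) against 16.3.

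Further genes among the 20 encode secreted proteins and receptors. Tnfaip6, which encodes a hyaluronan-binding protein, had 91.0 CPM in members and 11.3 in the other cells. Serpinf1, whose product is pigment epithelium-derived factor, had 84.6 CPM against 11.8. Nbl1, a secreted BMP antagonist, had 76.0 against 11.3. The retinoic acid receptor gene Rarg had 45.8 CPM against 4.01, and Crabp1 915 (884 to 946) against 188. Ppfibp2, Tril, Mab21l2 and Il11ra1 were also in the set, and the value of Il11ra1 is uncertain because near-identical gene copies can share its reads. The 10 lowest genes were Stmn2, which the rule limits, and the neuronal genes Tubb3, Ina, Stmn3, Igfbpl1, Neurod1, Nhlh2, Nefm and Elavl3, together with C130093G08Rik.

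Part of the matrix genes were higher in members. Of 27 tested genes of the interstitial matrix, 10 were at least 2-fold higher, 0 lower and 17 neither, beside 1.92% of all genes higher, and without the rule genes the count was 8 of 25. Col1a1, the partner chain of Col1a2 in type I collagen, had 36.7 CPM (30.8 to 43.3) against 4.72. Col26a1 had 59.4 CPM against 10.4, the microfibril gene Fbn2 71.5 against 19.8, the elastic fibre gene Emilin1 36.9 against 7.32, and Fbln1, a fibulin, 77.4 against 27.1. Fbln2, Fbln5 and Lum were the other 3. Postn and Tnc, matrix genes of later connective tissue, stood at 8.30 and 2.68 CPM in members, and Sparc was at 68.8 CPM against 69.4.

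The machinery that folds, trims and remodels collagen followed in part, with 5 of 25 genes higher and 0 lower, beside 1.92% and 6.28% of all genes. Serpinh1, the collagen chaperone HSP47, had 496 CPM (474 to 519) against 194 and was found in 315 of 321 members. Pcolce, which enhances the cleavage of procollagen, had 61.8 CPM against 13.7, and the gelatinase gene Mmp2 28.6 against 7.55. Fkbp10 and Timp1 were the other 2. The cross-linking enzyme gene Lox was at 4.01 CPM in members. Of 15 basement membrane genes, Nid1 and Nid2, which encode the nidogens, were higher and Agrn was lower at 13.9 CPM against 47.4.

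Among 42 tested mesenchymal transcription factors, 20 were higher and 3 lower, or 18 of 40 higher without the 2 rule genes. Over all genes 1.92% were higher and 6.28% lower, so the share of lower genes in the list was close to that of all genes. Foxf1, a forkhead factor of mesenchyme near Hedgehog-producing epithelium, had 49.2 CPM (42.4 to 56.9) against 3.78 and was found in 57 members. Snai2, a zinc finger factor of the neural crest and mesenchyme, had 38.8 CPM against 5.90 and its relative Snai1 19.5 against 2.83. Osr1 had 37.7 CPM against 2.60, Msx2 45.5 against 6.61, and Nfatc4 32.1 against 5.66. The 3 lower genes were Zeb2, at 19.5 CPM against 56.2, and Ebf1 and Ebf2, at 46.6 against 133 and 16.6 against 50.5. Those 3 are also known from developing neurons.

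Genes that mark regions of the head were spread over both the frontonasal and the branchial arch lists, beside 1.92% of all genes higher and 6.28% lower. The frontonasal and periocular list summed to 192 CPM in members (178 to 207) and 175 in the remaining cells, with 48.3 in progenitor-gene and 65.8 in neuron-gene cells. That RNA was thus not particular to members. The branchial arch list was at 447 CPM in members (426 to 469), and at 245, 77.4 and 308 in these classes in the same order. Of 12 frontonasal and periocular genes, Alx1, Pitx1, Pax3 and Foxl2 were higher. Alx1, a factor of the mesenchyme around the eye and nose, had 64.5 CPM against 10.6 and was found in 75 members. Tfap2a and Tfap2b were lower, at 3.21 CPM against 18.2 and 0.268 against 13.2. Of 14 branchial arch genes, 6 were higher and 0 lower: Dlx6, Hand2, Barx1, Lhx8, Gsc and Ednra. Dlx1 and Dlx2, which mark both arch mesenchyme and forebrain interneuron precursors, stood at 31.6 and 42.6 CPM in members and at 49.6 and 69.4 in the other cells. Hoxa2, the gene of the second arch, had 17.1 CPM against 4.96 and was found in 37 members. Of the 11 Hox genes measured, 3 reached 10 UMIs. The Hox list summed to 27.03 CPM in members and 42.4 in the remaining cells, with 4.26 in progenitor-gene and 1.59 in neuron-gene cells. Hox RNA was thus not particular to members.

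Signalling genes were read by pathway, beside 1.92% of all genes higher and 6.28% lower, and the pathways were not compared by a test. For platelet-derived growth factor, the receptor genes Pdgfra and Pdgfrb were higher, at 57.3 CPM (49.9 to 65.5) against 10.9 and 28.9 against 3.07, and 181 of 321 members (56.4%, 50.8 to 61.9) had a UMI of either, against 9.41% of the other cells (6.74 to 12.7). Summed, the platelet-derived growth factor list was at 152 CPM in members and 293 in the remaining cells, with 34.1 in progenitor-gene and 24.4 in neuron-gene cells. The ligand gene Pdgfa was at 22.2 CPM against 43.9, and within the members it was uneven. Subgroup E, 13 cells described below, had it at 316 CPM and the other 4 subgroups at 0 to 14.8. In the BMP list, 6 of 21 genes were higher, among them the ligand gene Bmp4 and the target genes Id1, at 201 CPM against 63.7, and Bambi, at 59.95 against 14.16, while Id4 was lower at 8.30 against 86.6. In the WNT list, 8 of 29 were higher and 2 lower, or 7 of 28 higher without the rule gene Twist1. Summed with Twist1, this list was at 840 CPM in members and 838 in progenitor-gene cells. It was at 479 in the remaining and 419 in neuron-gene cells, so the sum in members was not above that of progenitor-gene cells. The share of lower WNT genes was close to that of all genes. The higher ones included the target gene Axin2, at 50.1 CPM (43.1 to 57.8) against 8.26, the ligand gene Wnt5a, at 34.5 against 12.7, and the inhibitor genes Frzb, at 43.9 against 9.20, and Dkk2, at 27.3 against 4.48. Wnt7b, a ligand of neural and surface epithelia, was lower at 6.69 against 56.9.

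Of 13 Hedgehog genes, 4 were higher and 1 lower, beside 1.92% and 6.28% of all genes, and the list summed to 505 CPM in members against 241. The higher genes were Gas1, Cdon, Foxf1 and Foxf2. The ligand gene Shh was the lower one, at 3.21 CPM against 27.1, and its receptor gene Ptch1 stood at 50.1 against 59.7. Gas1, a Hedgehog co-receptor, had 256 CPM (240 to 273) against 52.9. Of 13 retinoic acid genes, 4 were higher and 0 lower, among them the binding protein gene Crabp1 and the receptor genes Rarb and Rarg. Crabp2 was at 659 CPM in members and 655 in the other cells. Of 16 fibroblast growth factor genes, Etv4 and Dusp6 were higher and Fgfr3, Fgf8 and Fgfbp3 lower, and of 12 transforming growth factor beta genes Tgfbi and Serpine2 were higher. Mdk, which encodes the growth factor midkine, was found in all 321 members at 2360 CPM, against 1025. Cxcl12, a chemokine of meninges and mesenchyme, had 51.1 CPM against 14.16, and the cadherin gene Cdh11 119 against 44.1, whereas Cdh2, the neural cadherin, was lower at 58.9 against 164.

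Markers of other cell types were read in the same way, beside 1.92% of all genes higher and 6.28% lower. All 10 tested neural progenitor genes and all 12 neuron genes were lower in members. Stmn2, which the rule limits, is one of the 12, and without it 11 of 11 were lower and the neuron list summed to 116 CPM against 3293. Summed, the neural progenitor list had 104 CPM in members (94.3 to 115) and 748 in the other cells, and the neuron list with Stmn2 121 (110 to 133) and 4267. Sox2 stood at 18.2 CPM (14.13 to 23.1) against 124, and 44 of 321 members (13.7%, 10.1 to 18.0) had a UMI of Sox2, Hes5 or Fabp7. Of 12 genes of the hypothalamic and anterior neural field, 10 were lower. Nkx2-1, which specifies the hypothalamus, had 8.56 CPM (5.86 to 12.1) against 57.4 and was found in 10 members, and Rax, the gene of the driver, had 6.42 (4.12 to 9.56) against 31.6 and was found in 11. Tbx3 was the higher gene of that list, at 35.6 CPM against 6.14, and is also known from limb and facial mesenchyme.

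Blood, vessel and surface cell markers were read beside the same shares of all genes, 1.92% higher and 6.28% lower. Of the 12 endothelial markers, 4 (Pecam1, Esam, Flt1 and Tie1) were at 0 UMIs in members, and the summed list was at 35.1 CPM against 33.8. Of 12 macrophage markers, 8 were at 0, among them Csf1r, Cx3cr1 and Ptprc, and the list summed to 4.82 CPM (2.86 to 7.61) against 30.9. By class it was at 6.90 CPM in neuron-gene cells, 7.10 in progenitor-gene cells and 114 in the remaining cells, so the difference lay mainly in the last class. The erythroid list summed to 470 CPM (449 to 493) against 740 (715 to 767), nearly all of it globin RNA, and Alas2 was at 0. Globin was present in all 3 classes of other cells as well, at 502 to 1182 CPM summed, and its part in any value was not tested. Of 8 mural genes, Pdgfrb, Rgs5 and Tbx2 were higher and 1 lower, and the list summed to 113 CPM against 55.9, or 141 in the 104 remaining cells, 36.9 in progenitor-gene cells and 27.6 in neuron-gene cells. Chondrogenic and osteogenic lists had 2 of 7 higher each, with Col2a1 at 66.4 CPM against 28.6, Col9a1 at 100.4 against 35.2, and Sox9, the regulator of cartilage, at 72.5 against 81.7. Summed, the chondrogenic list was at 293 CPM in members and 275 in the remaining cells, and the osteogenic list at 169 and 74.2. Ibsp and Acan, genes of formed bone and cartilage, were at 0 UMIs. Of 9 surface epithelium genes, 5 were lower, with Epcam at 6.42 CPM against 19.6.

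Of 19 meningeal genes 4 were higher, Foxc1, Foxc2, Cxcl12 and Crym, and 4 lower, among them Zic1, Zic4 and Nnat. For this and the next lists the shares over all genes were 1.92% higher and 6.28% lower. Zic1, a factor of meninges and dorsal neural tissue, had 7.76 CPM against 35.4 and was found in 5 members. Of 9 genes of migratory crest and Schwann cell precursors, 0 were higher and 3 lower, with a list sum of 56.5 CPM against 281. Sox10, the defining factor of migratory crest, was at 0.268 CPM against 3.54, and Foxd3 was at 0 UMIs. Of 3 tested pituitary genes, Pitx1 was higher and Pomc lower, the latter at 12.04 CPM against 34.5. Lhx3, Lhx4 and Pou1f1 were at 0, and the list summed to 48.4 CPM against 52.4. In the list of growth and imprinted genes, Igf1 and Igfbp4 were higher, the latter at 163 CPM against 56.6, and Meg3, Ndn and Nnat lower. Of 12 housekeeping genes 0 reached 2-fold in either direction.

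**Figure D2:**
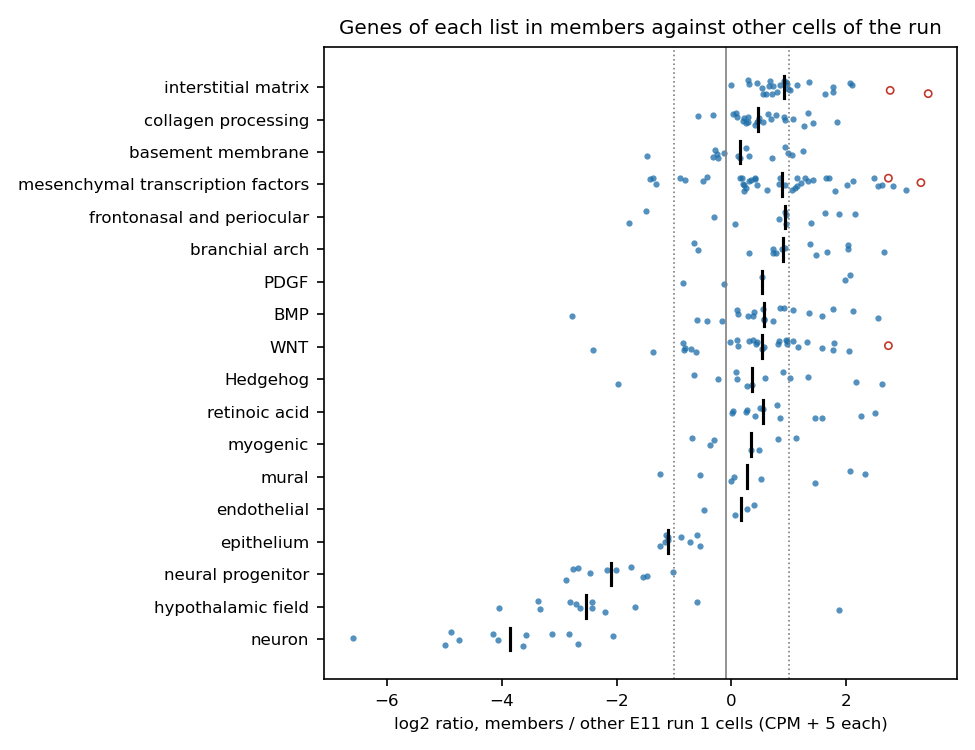
Each point is a gene with at least 10 UMIs, placed by its log2 ratio of members to the other E11 run 1 cells (5 CPM added to each); rule genes are open red circles, black bars are list medians, dotted lines mark 2-fold and the grey line the median of all genes. Points of the interstitial matrix list lie at about 0 or to its right, and all points of the neuron and neural progenitor lists lie to the left of the lower 2-fold line.

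Members varied among themselves in the genes that mark position. Pairs of such genes were counted within the 321 members, and the pairs described here were picked after their counts were seen. Dlx5 and Dlx6, neighbouring genes of the lower jaw programme, were found together: 60 of 76 members with Dlx6 (78.9%, 68.1 to 87.5) also had Dlx5, against 42 of 245 without Dlx6 (17.1%, 12.6 to 22.5). An antisense gene overlaps Dlx6 and the strand rule of the counting is not given, so reads of the 2 cannot be told apart. Dlx genes differed between members with and without Alx1. Among 75 members with Alx1, 1 had Dlx1 (1.33%, 0.0338 to 7.21) and 5 had Dlx6 (6.67%, 2.20 to 14.9), against 28.0% and 28.9% of the 246 members without Alx1. Dlx2 was found in 12 of the 75 (16.0%, 8.55 to 26.3) and Dlx5 in 10 (13.3%, 6.58 to 23.2), against 37.0% and 37.4%. Median depths of the cells with and without Alx1 were 11080 and 10812.5 UMIs.

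Alx1 was instead found with Pax3 and Msx1. Of 45 members with Pax3, a paired-box factor of the frontonasal crest, 29 had Alx1 (64.4%, 48.8 to 78.1) against 16.7% of those without, and 38 had Msx1 (84.4%, 70.5 to 93.5) against 29.7%. A further set was formed by Foxf1, Gsc and Hand2, factors of the ventral first arch and of mesenchyme next to foregut and oral epithelium. Of 57 members with Foxf1, 28 had Gsc (49.1%, 35.6 to 62.7) and 22 had Hand2 (38.6%, 26.0 to 52.4), against 17.8% and 10.6% of the members without Foxf1. None of the 45 members with Pax3 had Foxf1 (0 of 45, which allows up to 7.87% by the exact interval), against 20.7% of the others. Irx3 was found in 1 of 57 members with Foxf1 and in 106 of 264 without. The Foxf1 cells were shallower, with a median of 8825 UMIs against 11091. Tbx3 and Lhx8 were found together in 44 of 74 members with Tbx3 (59.5%, 47.4 to 70.7) and Lhx8 in 31 of 247 without (12.6%, 8.69 to 17.3), where depth also differed, at 13542.5 UMIs against 10129. At 2000 UMIs per cell too few UMIs were left for most pairs. Then 32 members had Foxf1 and 6 of these Gsc, and 21 had Dlx6 and 9 of these Dlx5. Tbx3 was left in 14 and 1 of these had Lhx8, so that pair was not seen at equal depth. Pax3 was left in 17 members, 13 of them with Msx1 and 5 with Alx1, against 40 and 28 of all members without Pax3. Alx1 was left in 33 members, 0 of them with Dlx1 or Dlx6, against 14 and 21 of all members without Alx1.

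**Figure D3:**
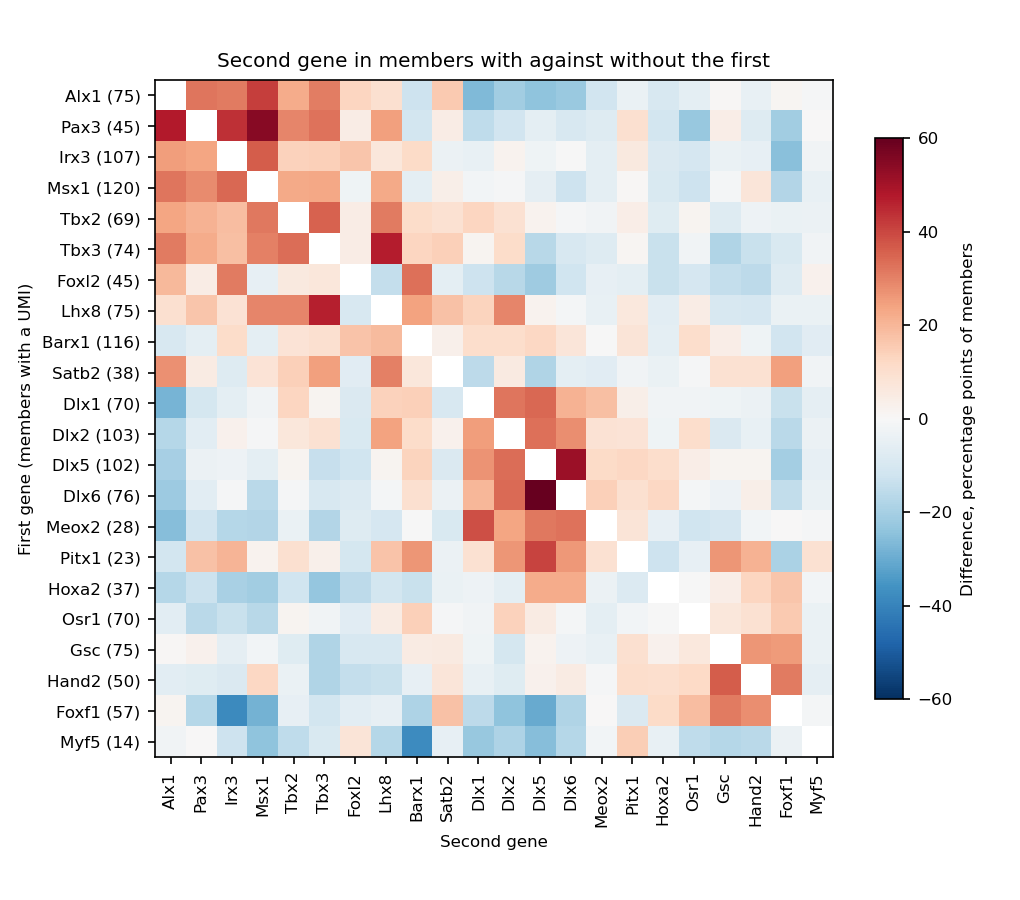
Heat map of position genes in the 321 members. Each cell gives the share of members with a UMI of the second gene (columns) among members with the first gene (rows, number of members in brackets) minus the share among members without it, in percentage points; Alx1, Pax3, Irx3 and Msx1 form a red block, Dlx1, Dlx2, Dlx5 and Dlx6 another, and Gsc, Hand2 and Foxf1 another.

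Members were also clustered on genes that belong to none of the gene lists. This gave 5 subgroups, called A (84 cells), B (84), C (81), D (59) and E (13), and list genes were then read in each. Genes shown for a subgroup are a description, since clusters of the same cells are not independent of them. B had most of the frontonasal genes, with Msx1 at 360 CPM against 5.02 to 172 in the other 4 subgroups, Alx1 at 153 against 5.02 to 64.3, Msx2 at 122 against 5.02 to 26.5, and Igf1 at 253 against 20.1 to 153. Irx3, Irx5 and En1 were among its 10 leading genes, and Hoxa2 was at 0 UMIs in B. C had Dlx1 at 59.6 CPM and Dlx2 at 85.5, its leading gene was the chemokine gene Cxcl14, and Dlx5 was at 117 CPM, next to 98.4 in D. Dlx6 was at 66.4 CPM in C and 69.4 in D, and Tbx3 and Lhx8 were at 54.2 and 80.7 in B and 58.0 and 77.0 in D, so these pairs matched no single subgroup. D was led by cell division genes such as Ube2c, Aurka and Plk1. The borders of A to D depended on the settings: the largest part of a subgroup that stayed in 1 cluster was, at resolution 1.0, 49 of 84 cells for A, 37 of 84 for B, 44 of 81 for C and 47 of 59 for D. With 2000 variable genes it was 44, 37, 55 and 51 cells, and the largest parts of A and B then fell into the same cluster of 101 cells.

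Subgroup A had the Foxf1 set. Foxf1 was at 178 CPM there against 1.02 to 21.4 in the other subgroups, Gsc at 104 against 5.02 to 48.0, Hand2 at 59.3 against 0 to 20.2, the imprinted zinc finger gene Plagl1 at 261 against 12.4 to 100.3, and the pericyte gene Rgs5 at 58.2 against 0 to 6.13. A also held most of the neural RNA of the members. Its neural progenitor list summed to 332 CPM against 9.20 to 115, and 21 of its 84 cells had at least 2 summed UMIs of Sox2, Hes5, Fabp7 and Tubb3. In those 21 cells Sox2 was at 160 CPM, Foxf1 at 45.97, Gsc at 32.4 and Rgs5 at 13.5, and in the other 63 Sox2 was at 1.97, Foxf1 at 274, Gsc at 156, Hand2 at 90.7 and Rgs5 at 90.7. Foxf1, Gsc and Rgs5 were thus higher in the cells with few neural UMIs, but depth differed too, with a median of 14882 UMIs in the 21 cells and 7181 in the 63, and its part was not tested. Plagl1 was at 235 CPM in the 21 cells and 280 in the 63. A had the lowest median depth, 7652 UMIs, and held the member that was called a doublet. A is left unnamed because Sox2, Hes5, Nhlh2 and Elavl4 were among its 10 leading genes.

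Subgroup E held 13 cells and is called myogenic-like from 5 markers of the myogenic list among its 10 leading genes. Myog, the muscle differentiation factor, was at 271 CPM in E against 0 to 1.14 in the other subgroups, with a UMI in 6 of 13 cells. Myod1, which acts before it, was at 160 CPM in 10 of 13 cells and at 0 UMIs in the other subgroups. Myf5, the early muscle determination factor, was at 211 CPM, and Msc, a factor of head muscle precursors, at 221. Mesenchymal genes varied there. Crabp1 was at 10.0 CPM against 384 to 1333, Prrx1 at 30.1 against 162 to 468, and Pdgfra at 0 UMIs, while the ligand gene Pdgfa was at 316 CPM against 0 to 14.8. E was the lowest of the 5 subgroups in the sum of the naming markers, at 211 CPM against 493 to 700. It was also lowest in the mesenchymal transcription factors, at 1224 against 2302 to 3066, next to 1292 in the non-member cells. The interstitial matrix list was lowest there too, at 1068 against 1301 to 1493. Zeb1, Ebf1 and Sparc were instead highest in E, at 110 CPM against 13.3 to 43.3, 160 against 15.3 to 51.3 and 135 against 41.6 to 107. The collagen processing list was also highest there, at 1495 CPM against 1244 to 1451. E cells had a median of 3 rule UMIs, so their place among the members rests on few counts, with Col3a1 found in 9 and Col1a2 in 8 of 13. All 13 stayed in the same cluster at a finer resolution and with 2000 variable genes. The remaining 104 non-member cells of the run also carried myogenic RNA, at a summed 246 CPM against 74.7 in members.

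**Figure D4:**
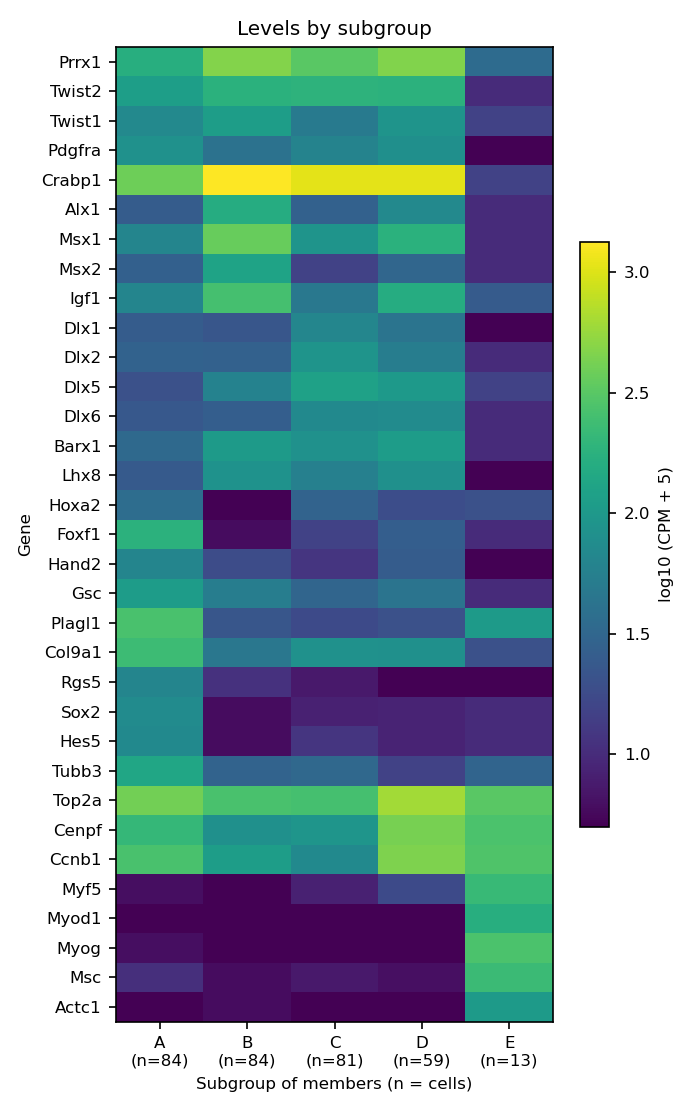
Colour gives log10 of CPM + 5 for genes chosen after their values were seen, in the 5 subgroups of members (n = cells). Foxf1, Hand2, Gsc, Plagl1 and Rgs5 are brightest in A, Alx1, Msx1, Msx2 and Igf1 in B, and the muscle genes from Myf5 to Actc1 in E, where Crabp1 and Pdgfra are dark.

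Proliferation genes were at like or higher levels in members. Of 10 genes, Mcm5, a replication licensing gene, was higher at 115 CPM against 54.8, and the rest did not reach 2-fold, with Top2a at 369 against 242 and Mki67 at 93.7 against 76.5. After each cell was thinned to 2000 UMIs, 161 of 321 members (50.2%, 44.6 to 55.8) held a UMI of Mki67 or Top2a, against 29.0% of the other cells (24.6 to 33.7). By class this was 12.04% of neuron-gene cells (7.79 to 17.5), 45.9% of progenitor-gene cells (36.3 to 55.7) and 42.3% of the remaining cells (32.7 to 52.4). The members' interval overlapped those of the last 2 classes and lay above that of the neuron-gene cells. Without thinning the share in members was 85.7%, and the thinned share ran from 35.7% in subgroup B (25.6 to 46.9) to 74.6% in D (61.6 to 85.0).

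The reporter was lower in members than in the other cells of the run as a whole. All 725 cells of run 1 in the table held at least 1 tdTomato UMI, unlike those of run 2, so a level that counts the first UMI is raised by construction. In members tdTomato was at 98.0 CPM (88.2 to 109), with exactly 1 UMI in 283 members, 2 or more in 38 (11.8%, 8.51 to 15.9) and at most 5. Other cells of the run were at 145 CPM (134 to 157), and 125 of 404 (30.9%, 26.5 to 35.7) had 2 or more. Leaving out the first UMI of every cell left 12.04 CPM in members (8.79 to 16.1), 14.8 in the remaining cells (8.11 to 24.9), 37.6 in progenitor-gene cells (28.2 to 49.2) and 75.8 in neuron-gene cells (63.9 to 89.3). The members' interval lay below those of the neuron-gene and progenitor-gene cells and overlapped that of the remaining cells. In run 2, the cells outside the rule, 548 of which had no tdTomato UMI, were at 333 CPM and had 279 past the first UMI. The 59 cells of run 2 that pass the rule were at 250 CPM (222 to 279), with 209 past the first UMI (184 to 236) and 2 or more UMIs in 76.3% of cells (63.4 to 86.4).

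Cells passing the rule in run 2 differed from the members in what else they held. Of those 59 cells, 35 had a Rax UMI (59.3%, 45.7 to 71.9) and 38 an Nkx2-1 UMI (64.4%, 50.9 to 76.4), against 11 and 10 of the 321 members, and 13 (22.03%, 12.3 to 34.7) had a UMI of Prrx1 or Twist2, against 278 members (86.6%, 82.4 to 90.1). Their median depth of 17570 UMIs was above that of the members. With at least 5 rule UMIs, 15 cells of run 2 were left, and these had Prrx1 at 181 CPM, Crabp1 at 905, Barx1 at 240 and Sox2 at 71.9. Their rule UMIs ran from 5 to 90 with a median of 11, so these pooled levels may rest on few of the 15 cells. Of the member barcodes, 3 were also found in another run.

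At later ages the rule found few cells. It found 0 of 356 in E14 run 1, which allows up to 0.843% by a limit of 3 cells (1.03% by the exact interval), 6 of 16794 in E14 run 2 (0.0357%), 20 of 2452 and 76 of 9628 in the P0 runs (0.816% and 0.789%) and 217 of 8917 at P7 (2.43%, 2.12 to 2.77). The summed level of the 4 rule genes was 279 CPM in E11 run 1 (268 to 291) and between 1.79 and 13.7 in the other 6 runs. In the cells passing at P0 and P7, Col1a2 was at 280 and 190 CPM while Twist2 was at 0 UMIs in both, and Fabp7, a glial and progenitor gene, stood at 6615 and 3068 CPM against 23.6 in members. Most rule UMIs of these later cells were thus of Col1a2. At 2000 UMIs per cell 98 cells of E11 run 1 passed, 8 of E11 run 2, 26 and 17 of P0 run 2 and P7, 1 of E14 run 2 and none of the other 2 runs.

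**Figure D5:**
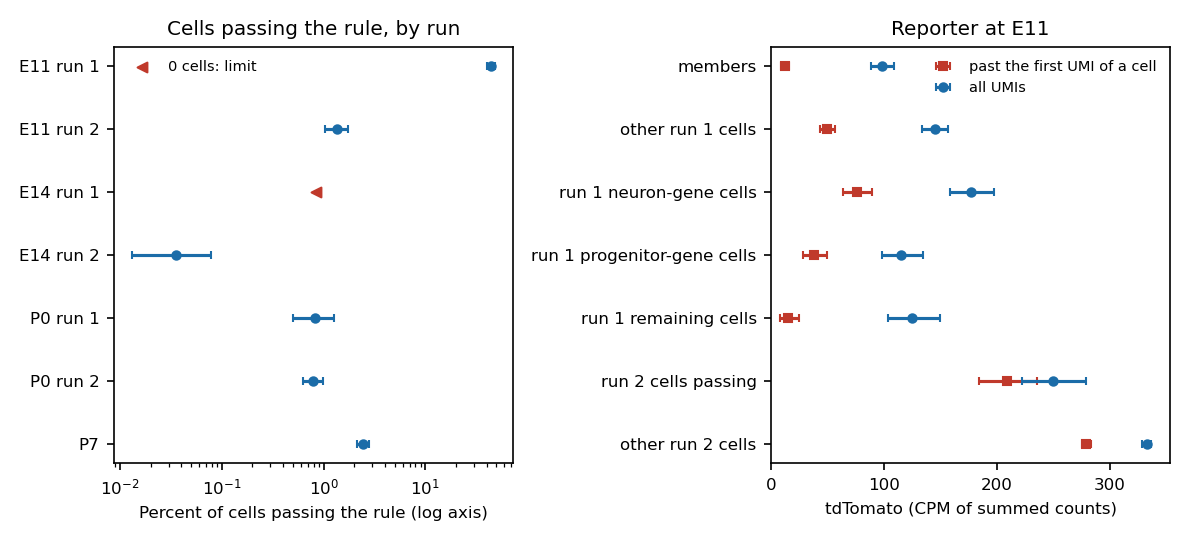
Left, percent of cells passing the rule in each of 7 runs (log axis) with exact 95% intervals, E14 run 1 being shown at the limit of 3 of 356 cells. Right, tdTomato CPM at E11 with exact Poisson 95% intervals for all UMIs (blue circles) and without the first UMI of each cell (red squares); members sit at 98.0 and 12.04 CPM.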

How the data were processed

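Single-cell RNA was measured in 4 samples, 1 per age. The authors deposited a table of UMI counts for 28879 genes and 43261 cells, not normalized, with 0 values below 0 or not whole. Cell Ranger 3.0.2, Seurat and the build mm10 are named in the submitters' processing notes, without their roles, and cell filters are not given in the sources used here. Runs were read from cell names. The members and all 35 gene lists were chosen with earlier results of these data known. Members, counted over cells of 1 sample, were summed, and CPM computed with exact intervals. Called genes had at least 10 UMIs over both groups and a ratio of at least 2 or at most 0.5 after adding 5 CPM. Depth was equalised by thinning to 2000 UMIs per cell.

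Named genes were the naming markers, the 20 highest and 10 lowest ratios among called genes detected in 25% or more of the cells on the higher side, and the genes of each list with the highest level, at 0 or past 2-fold. Subgroups came from Leiden clustering in Scanpy 1.11.5 (1000 variable genes outside the lists, 20 components, 15 neighbours, resolution 0.5), with doublets called by Scrublet and kept, 7 in the run and 1 among members. Python 3.11.15, numpy 2.4.6, scipy 1.17.1 and pandas 2.3.3 were used, and the ratio script was tested on simulated data. RefSeq (GRCm38.p6) held 22509 of the 28879 symbols. Alternatives varied the rule, the pseudocount, the filter, the scaling, the comparison cells, thinning and clustering. Some genes are not reported here.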

Additional observations from a re-analysis of the deposited data

How the results depend on the processing

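The share of run 1 cells counted as members was 51.7% with at least 1 rule UMI, 25.9% with at least 5 and 13.5% at 2000 UMIs per cell. Of 13211 tested genes, 570 were higher and 1781 lower with 1 CPM added, and 94 and 286 with 20. Against cells of E11 run 2, 824 were higher and 2498 lower of 19160 tested. Against progenitor-gene cells alone, an alternative chosen after seeing the data, 432 of 11833 genes were higher and 568 lower. The last 2 comparisons tested other sets of genes, so their counts do not share a base with the main 253 and 829. Other settings (filters of 1 and 50 UMIs, mean CPM per cell, median-ratio scaling, other thresholds, without doublets, without subgroup E or members with neural UMIs, the last 2 chosen after seeing the data) kept both counts within 1.5 times. tdTomato in members was 109.0 CPM as a mean per cell. The proliferation share was 85.7% without thinning, 33.6% at 1000 UMIs and 84.4% for at least 2 of 10 genes. At 2000 UMIs and at least 5 rule UMIs respectively, the rule passed 0.182% and 0.342% of E11 run 2, 0.00595% and 0.00595% of E14 run 2, 0% and 0% of P0 run 1, 0.270% and 0.166% of P0 run 2, and 0.191% and 0.370% of P7. Resolution 1.0 gave 9 subgroups. The causes were not tested. Of 390 ratios of the 30 highest and lowest genes over 13 settings, 103 moved by over 1.5-fold and 0 changed direction. These 30 genes were picked for extreme ratios in these same cells, and the rule genes and Stmn2 are among them. That 0 changed direction was thus largely set by the choice of genes and says little on stability. The filters of 1 and 50 UMIs are among the 13 and cannot change a ratio, so their values say nothing on stability. With 5 CPM added a gene under 10 UMIs cannot reach 2-fold, so both counts at the filter of 1 UMI were also fixed in advance. Against progenitor-gene cells 26 of 30 moved, and Stmn2 (ratio 0.787), Ina (0.877) and Nefm (0.984) were no longer 2-fold lower; Prrx1 ran from 4.66 to 34.1. No paired analysis was possible because no result comes from a test between samples. Depth limits single genes: Twist1 and Foxc1 had a median of 0 UMIs per member.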
